A study of Sus scrofa with 8 samples.

Results

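Insulin-like growth factors (IGFs) and growth hormone control body growth after birth, and the lung makes much of its own IGF system. Growth hormone binds its receptor, GHR, and through the kinase JAK2 and the STAT5 proteins raises transcription of IGF1 in the liver and other tissues. IGF1 and IGF2 signal mainly through the receptor kinase IGF1R, and a family of IGF binding proteins (IGFBPs) carries the ligands, protects them or keeps them from the receptor. In lung, IGFs come largely from mesenchymal cells and act on epithelium and vessel walls during growth and repair.

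The genes described here are the 2 ligands IGF1 and IGF2, the 2 receptors IGF1R and GHR, and the 5 binding proteins IGFBP2, IGFBP3, IGFBP4, IGFBP5 and IGFBP6. Members were found by gene symbol or by the RefSeq accession of the array's target, and a probe counted if its spot was well above background on at least 1 array. All 9 genes had such a probe, so that no member was missing. They hold 17 of the 34406 probes tested, of which 6 were for IGF2, 3 for IGF1R, 2 for IGF1 and 1 for each other gene. On all 8 arrays 16 of the 17 were well above background, and the remaining IGF1R probe passed on 1 DL array only. Where a gene had several probes, the brightest stands for it and disagreement is given.

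Lung RNA of female pigs at 6 months of age was measured on 8 one-color Agilent arrays, 1 pig per array and 2 pigs per group. TH were Tibetan pigs, a small highland breed, raised at 3500 m, and DL were Duroc pigs, a fast-growing commercial breed, raised at 40 m. TL were Tibetan pigs moved to 40 m and DH were Duroc pigs moved to 3500 m, both when 1 month old. The TH and DL groups, which were never moved, shared 1 slide, and the TL and DH groups, which were moved, shared the other. The breed effect (Tibetan minus Duroc) and the altitude effect (high minus low) are balanced over slides. The interaction, the high minus low difference of the Tibetan pigs minus that of the Duroc pigs, is also the contrast between slides and between moved and unmoved pigs, and these cannot be told apart.

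Levels are the deposited log2 values, and each effect is a log2 difference with its standard error from limma over all tested probes. An effect was called at an adjusted p below 0.0001, the threshold of the study. Of 8 lung epithelium markers 6 had a named probe, among them the surfactant protein genes SFTPA1, SFTPB, SFTPC and SFTPD, and all 6 were well above background on every array. The TL arrays stood apart. Their median raw signal was 324 and 333.5, against 207.5 to 230.0 on the other arrays, and 31641 and 31723 of their probes were well above background, against 26466 to 29319. Over all probes the median of TL minus DL was -0.21 and the median interaction 0.21. Scaling the processed signals to their 75th percentile in place of the deposited normalization moved these medians to -0.30 and 0.33. At 41 probes with 5 spots per array, replicate arrays differed by 0.90 to 1.02 times the spread among the spots of 1 array. P-values thus measure a spread between samples that may be technical. Leaving out each array in turn, the breed, altitude and interaction effects of IGFBP2 and of IGF2 at A_72_P209727 and the altitude effect of IGF1R at its brightest probe stayed called each time; every other called effect of these kinds at a member probe was lost without at least 1 array, with its direction kept and an adjusted p below 0.01. Of the called comparisons between single groups given below with a value at a member probe, TL minus DL and TH minus TL at those IGFBP2 and IGF2 probes and TH minus TL at the brightest IGF1R probe stayed called each time, and each other one was lost without at least 1 array. In bulk tissue, fewer cells of a type and less RNA per cell cannot be told apart.

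The IGF ligands were lowest in the Tibetan pigs moved to low altitude. IGF1, the main growth hormone dependent ligand, had 2 probes. At the brighter probe (A_72_P232282) the log2 values were 11.12 and 11.07 in TH, 10.11 and 9.44 in TL, 10.54 and 10.57 in DH, and 10.52 and 10.49 in DL. The TH arrays were above and the TL arrays below all others, and the TL arrays lay far apart from each other. No effect of this probe was called, with -0.09 ± 0.15 for breed, 0.69 ± 0.15 for altitude (adjusted p = 0.0107) and 1.27 ± 0.30 for the interaction (adjusted p = 0.0135).

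The dimmer IGF1 probe (A_72_P181626), whose target is not a RefSeq transcript, also had TH highest and TL lowest, with closer replicates. Its log2 values were 9.71 and 9.68 in TH, 8.46 and 8.45 in TL, 9.25 and 9.25 in DH, and 9.36 and 9.27 in DL. The altitude effect of 0.58 ± 0.03 was called (adjusted p = 2.58e-05), as was the interaction of 1.31 ± 0.05 (adjusted p = 1.62e-05), and both calls were lost from the raw median signals (0.55 and 1.22). Within Tibetan pigs the highland level exceeded the lowland level 2.36-fold, by 1.24 ± 0.04, whereas DH minus DL was -0.07 ± 0.04. TL minus DL was called at -0.86 ± 0.04 but was -0.45 and not called at the 75th percentile scaling. The breed effect was -0.21 ± 0.03, was not called, and turned to 0.0087 at that scaling.

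IGF2, an imprinted ligand best known for growth before birth, had 6 probes, and TL was lowest at all of them. The brightest alone of the 6 has a target that is not a RefSeq transcript. At the brightest (A_72_P211042) the log2 values were 16.16 and 16.08 in TH, 15.43 and 15.42 in TL, 15.86 and 15.91 in DH, and 16.21 and 16.25 in DL. At A_72_P209727, the probe with the largest interaction of the 6, they were 11.28 and 11.30 in TH, 9.02 and 8.995 in TL, 11.27 and 11.27 in DH, and 11.26 and 11.26 in DL. The arrays of TH, DH and DL lay close together at the second of these probes, and both TL arrays were far below.

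The size of the IGF2 difference depended on the probe. TL minus DL ranged from -2.25 ± 0.02 at A_72_P209727, a 4.77-fold difference, to -0.80 ± 0.04 at the brightest probe, a 1.75-fold difference, and was called at all 6. The interaction was also called at all 6, between 1.03 ± 0.06 and 2.27 ± 0.03. At the 75th percentile scaling the brightest probe gave -1.45 for TL minus DL and 1.61 for the interaction. From the raw median signals it gave -0.83 and 1.06, neither called. The breed effect ranged from -1.12 to -0.29 and the altitude effect from 0.18 to 1.15, and each was called at 5 probes, the brightest being the exception. At the 75th percentile scaling the brightest probe was called for both (-0.65 and 0.63), and the breed effect of A_72_P055876, -0.58, was lost (-0.41), as it was from the raw median signals (-0.53). DH minus DL was between -0.34 and 0.03 and was called at none of the 6. The 6 probes read the same gene in the same 8 pigs and are not separate evidence.

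**Figure D1:**
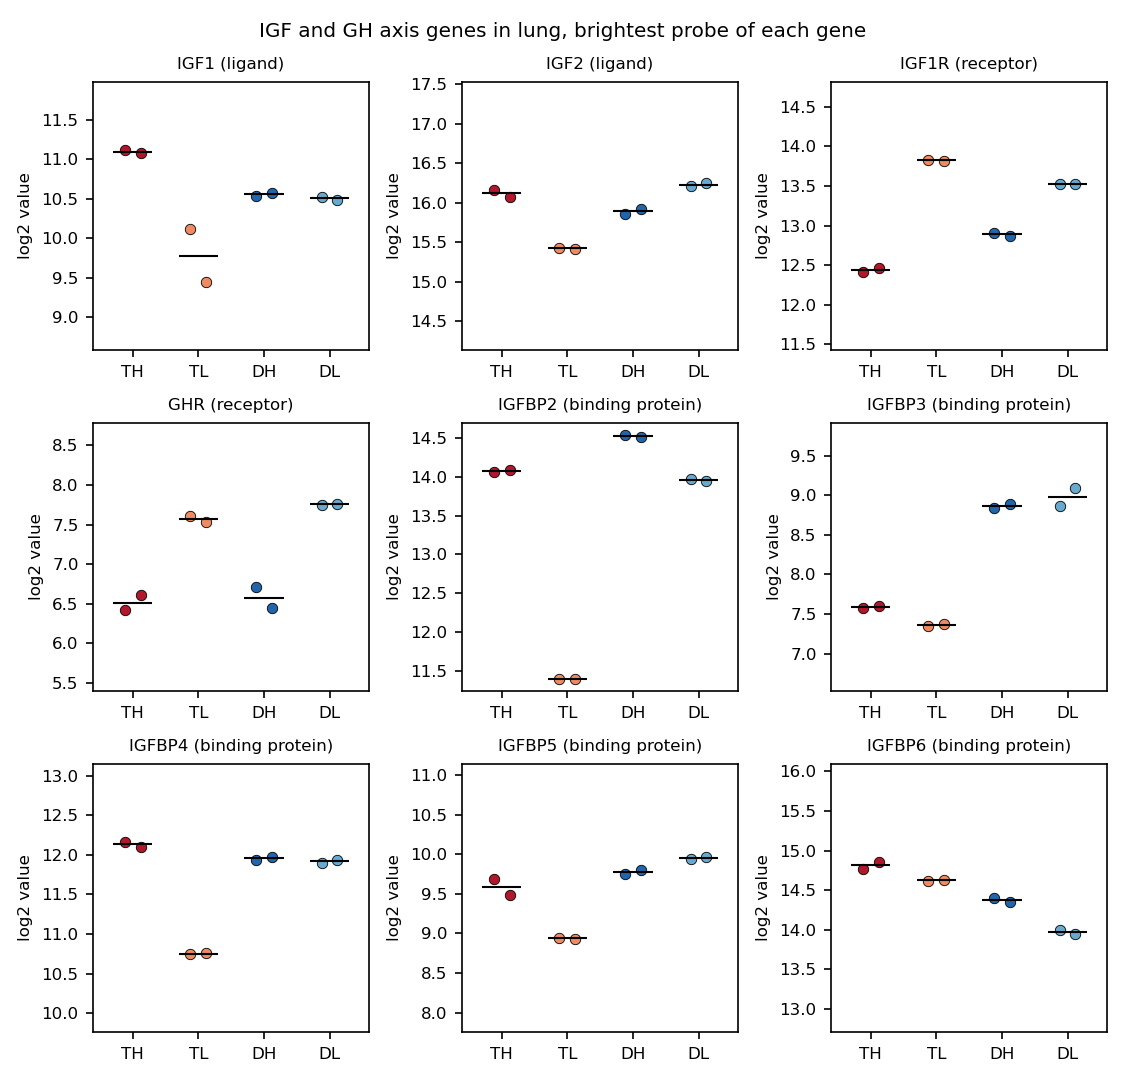
Deposited log2 value (vertical axes) of the brightest probe of each of the 9 genes by group, with a point for each array and a bar at the mean of the 2. TL is lowest for IGF1, IGF2, IGFBP2, IGFBP3, IGFBP4 and IGFBP5; the low altitude groups are above the high altitude groups for IGF1R and GHR.

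The brightest IGF1R probe and the GHR probe read higher at low altitude than at high altitude in both breeds, IGF1R past the threshold and GHR just outside it. IGF1R, the receptor kinase for both ligands, had its brightest probe (A_72_P305924) at 12.41 and 12.46 in TH, 13.83 and 13.82 in TL, 12.91 and 12.87 in DH, and 13.53 and 13.52 in DL. All 4 low altitude arrays were above all 4 high altitude arrays, with TL highest and TH lowest. At the 75th percentile scaling DL was highest instead, with log2 values relative to that percentile of 2.86 and 2.85 in DL and of 2.58 and 2.57 in TL. The altitude effect was -1.01 ± 0.02, a 2.02-fold difference (adjusted p = 3.9e-06), and it stayed called whichever array was left out. Within breeds, TH minus TL was -1.38 ± 0.03 and DH minus DL was -0.64 ± 0.03, both called, the second being lost from the raw median signals and whichever array was left out. Within slides, TH minus DL was -1.09 ± 0.03 and TL minus DH was 0.94 ± 0.03, both called, and the second was 0.39 and not called at the 75th percentile scaling. The interaction of -0.75 ± 0.04 was called (adjusted p = 4.82e-05), but it was -0.16 and not called at the 75th percentile scaling, where TH minus TL was -0.83 and the breed effect, -0.07 ± 0.02 here, was called at -0.36.

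The other IGF1R probes did not share this pattern. A_72_P146851, whose target is a RefSeq transcript, read 8.80 and 8.03 in TH, 7.44 and 7.35 in TL, 7.99 and 7.82 in DH, and 7.92 and 8.15 in DL. It was lowest in TL, opposite to the brightest probe, its TH arrays were 0.77 apart, and none of its effects was called (altitude 0.44 ± 0.19, adjusted p = 0.0874). A_72_P262822 was well above background on 1 DL array only, and no difference is drawn from it. The target of the brightest probe is not a RefSeq transcript, and which of the probes reads the receptor transcript could not be settled here. The mean of all tested IGF1R probes gave an interaction of 1.04, opposite in sign to that of the brightest. This mean includes A_72_P262822, whose own interaction of 2.72 comes from values near background, so no reversal is drawn from it. The interaction of A_72_P146851 was also positive, at 1.14 ± 0.38 (adjusted p = 0.0401), and not called. The sign of the IGF1R interaction thus differed between probes.

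GHR, the growth hormone receptor, was read by 1 probe (A_72_P303059) at 6.42 and 6.60 in TH, 7.61 and 7.53 in TL, 6.71 and 6.45 in DH, and 7.75 and 7.76 in DL. Its 4 low altitude arrays were all above its 4 high altitude arrays. The altitude effect of -1.12 ± 0.08, a 2.17-fold difference, had an adjusted p of 1.08e-04 and so lay just outside the threshold. It passed the threshold at the 75th percentile scaling (-1.21), under both stricter filters on dim probes and with an intensity trend. TH minus TL was -1.06 ± 0.11 and DH minus DL -1.18 ± 0.11, close to each other, and the interaction was 0.12 ± 0.15 (adjusted p = 0.507). GHR was a dim probe: with local background subtraction and an offset of 50, which compresses differences between dim spots, its altitude effect was -0.24. The effect was called at that setting, with all low altitude arrays again above all high altitude arrays. The IGF1R and GHR probes were 2 of 17 member probes with all low altitude arrays above all high altitude arrays, against 9.09% of all probes. The opposite order was found at 3 of 17, IGF1 A_72_P232282, IGF2 A_72_P209727 and IGFBP2, against 11.9% of all probes, and of these IGFBP2 alone had it in both normalizations of the raw signals.

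**Figure D2:**
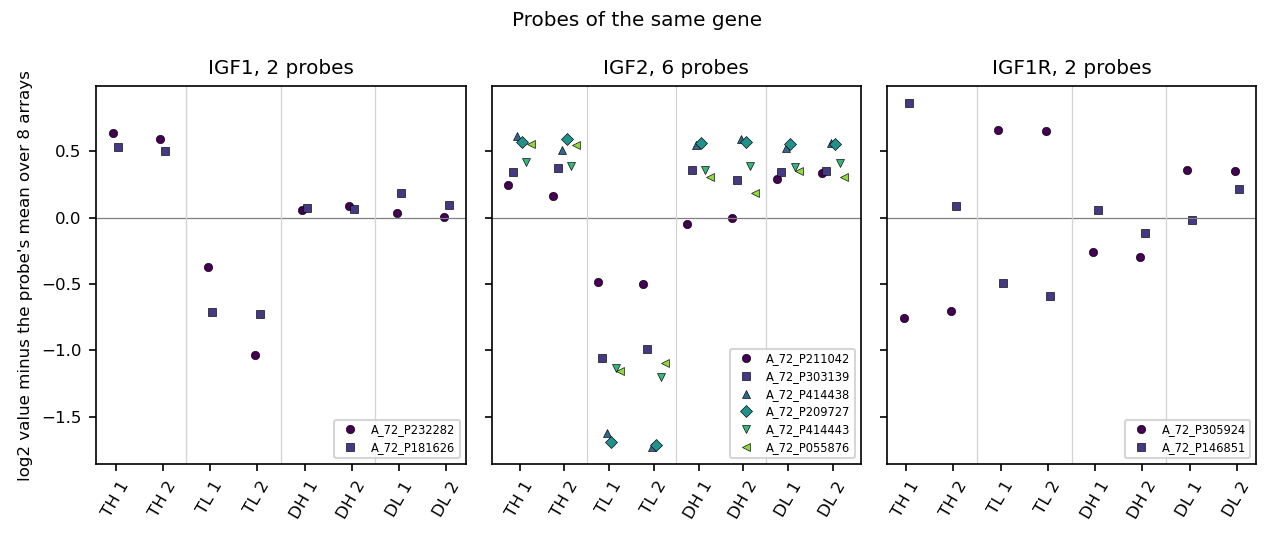
Deposited log2 value minus the probe's own mean over the 8 arrays (vertical axis) for each array (horizontal axis), for the 2 IGF1 probes, the 6 IGF2 probes and the 2 IGF1R probes that were well above background on all arrays. All IGF1 and IGF2 probes are lowest on the TL arrays, and the 2 IGF1R probes take opposite directions there.

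IGFBP2 differed the most between groups among the 9 brightest probes. It binds both IGFs and is abundant in fetal tissues. A_72_P178161 read 14.06 and 14.09 in TH, 11.39 and 11.40 in TL, 14.55 and 14.51 in DH, and 13.97 and 13.95 in DL. Both TL arrays were far below the rest, and DH was above TH and DL. TL was 5.93-fold below DL (-2.57 ± 0.03, adjusted p = 4.06e-07) and 6.42-fold below TH. In Duroc pigs the highland group exceeded the lowland group 1.48-fold, by 0.57 ± 0.03, which was called but was lost whichever array was left out. Breed (-1.51 ± 0.02), altitude (1.62 ± 0.02) and interaction (2.11 ± 0.04) were all called and stayed called whichever array was left out. This IGFBP2 probe and an IGF2 probe are in the study's own lists of results from these same arrays. Some of those lists were selected by the authors' tests, and they are not independent evidence.

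IGFBP3, the main IGF carrier of the blood, separated the breeds. Its probe (A_72_P165666) read 7.57 and 7.61 in TH, 7.35 and 7.37 in TL, 8.84 and 8.89 in DH, and 8.86 and 9.096 in DL. All 4 Duroc arrays were above all 4 Tibetan arrays. The breed effect was -1.45 ± 0.06, a 2.73-fold lower level in Tibetan pigs (adjusted p = 1.44e-05). TH minus DH was -1.28 ± 0.08 and missed the threshold, and TL minus DL was -1.62 ± 0.08 and was called. The comparisons within a slide were called and went the same way, with TH minus DL at -1.39 ± 0.08 and TL minus DH at -1.51 ± 0.08. TH minus DL was no longer called from the raw median signals (-1.25) or at the 75th percentile scaling (-1.26), and the breed effect was -0.54, still called, with local background subtraction and an offset of 50. Altitude gave 0.06 ± 0.06 and the interaction 0.34 ± 0.11; neither was called, and both turned negative at the 75th percentile scaling (-0.03 and -0.04).

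Endothelium markers also differed between the breeds. The summed linear level of 5 of them (PECAM1, CDH5, VWF, KDR and TEK) was 256575 to 259908 in TH, 283917 to 284820 in TL, 339778 to 342092 in DH and 358867 to 364088 in DL, and 4 of the 5 were called lower in Tibetan pigs. All were well above background on every array. Their part in the IGFBP3 difference was not tested.

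IGFBP4, which mostly restrains IGF action and is cleaved by the protease PAPPA, followed the ligands. A_72_P351938 read 12.17 and 12.10 in TH, 10.74 and 10.76 in TL, 11.94 and 11.98 in DH, and 11.90 and 11.94 in DL. TL was the lowest group and the other 3 lay close together. The target of this probe, the only 1 for IGFBP4, is not a RefSeq transcript. TL was 2.25-fold below DL (-1.17 ± 0.03), and breed (-0.50 ± 0.02), altitude (0.71 ± 0.02) and interaction (1.34 ± 0.05) were all called, breed being lost from the raw median signals (-0.48).

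IGFBP5 lies next to IGFBP2 in the pig genome (Sscrofa11.1) and binds the extracellular matrix as well as IGFs. Its probe (A_72_P146706) read 9.69 and 9.49 in TH, 8.94 and 8.93 in TL, 9.75 and 9.80 in DH, and 9.94 and 9.96 in DL. All Duroc arrays were above all Tibetan arrays, with TL lowest. TL was 2.02-fold below DL, by -1.01 ± 0.07 (adjusted p = 9.06e-05), which was -0.69 and not called at the 75th percentile scaling. The breed effect was -0.60 ± 0.05 (adjusted p = 2.31e-04), altitude 0.24 ± 0.05 and interaction 0.83 ± 0.10, none of them called.

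IGFBP6, which prefers IGF2 over IGF1, was the member whose breed effect went the other way. Its probe (A_72_P088481) read 14.76 and 14.86 in TH, 14.62 and 14.63 in TL, 14.40 and 14.35 in DH, and 14.00 and 13.94 in DL. All 4 Tibetan arrays were above all 4 Duroc arrays. The breed effect was 0.55 ± 0.03, 1.46-fold higher in Tibetan pigs (adjusted p = 4.98e-05). This rested on the normalization: at the 75th percentile scaling the breed effect was 0.22 and not called, TL minus DL fell from 0.65 to 0.01, TL lay below DH, by -0.46, and the arrays of the 2 breeds overlapped. TH minus DL, within 1 slide, was 0.84 ± 0.04 and called, but was lost whichever array was left out. Altitude (0.30 ± 0.03) and interaction (-0.21 ± 0.06) were not called, and the interaction was 0.41 at that scaling. No other member probe was above the Duroc arrays on all Tibetan arrays, a pattern of 7.39% of all probes, and 2 member probes had the opposite order, seen at 14.4% of all probes.

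**Figure D3:**
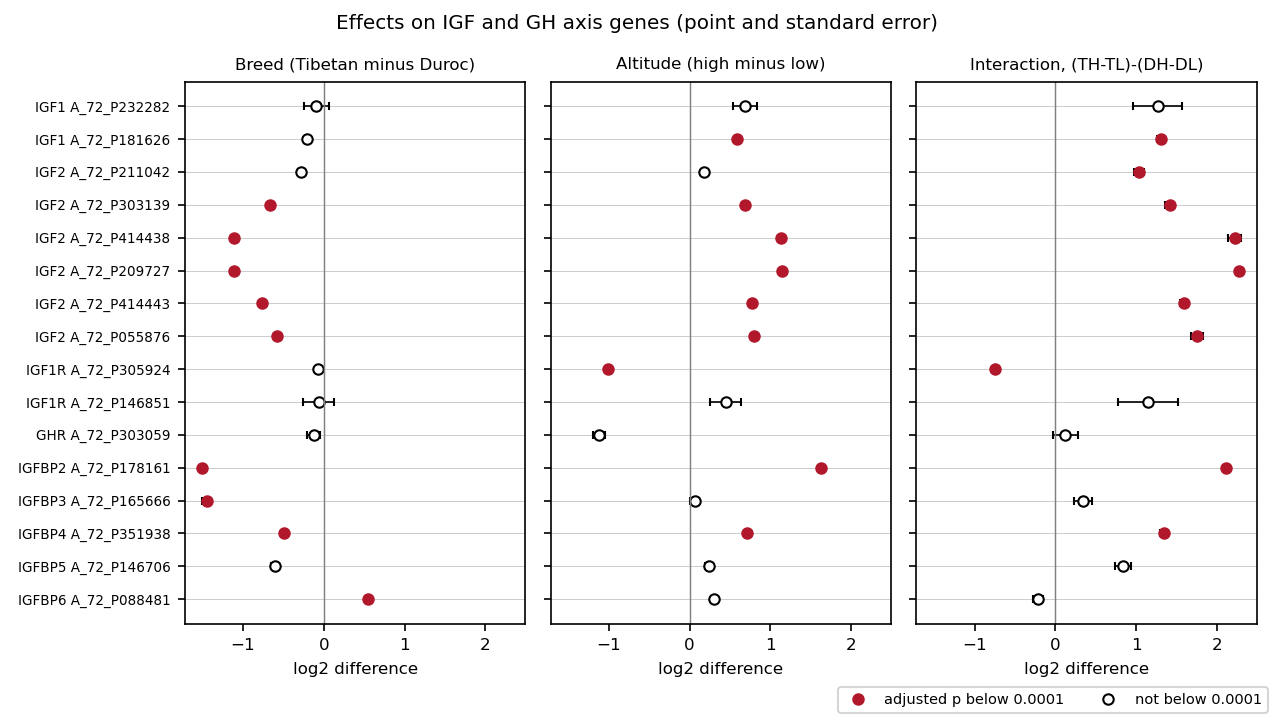
Log2 effect of breed, altitude and their interaction (horizontal axes) for the 16 member probes well above background on all 8 arrays, with standard errors; filled points have an adjusted p below 0.0001. Called interactions are positive for IGF1, IGF2, IGFBP2 and IGFBP4 and negative for the brightest IGF1R probe.

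Across the members, 9 of 17 probes were called for breed, 1 higher and 8 lower in Tibetan pigs, where 27.4% of all probes were called (12.8% higher and 14.6% lower). The higher probe was that of IGFBP6 and the lower ones were those of IGF2, IGFBP2, IGFBP3 and IGFBP4. At the 75th percentile scaling the split was 0 higher and 9 lower, against 14.0% higher and 19.2% lower of all probes. The breed effect is a mean over both altitudes. TH minus DH was between -0.01 and 0.30 at the IGF2 probes and 0.18 at IGFBP4. At these genes the Tibetan pigs were thus clearly lower at low altitude only. For altitude 9 of 17 were called, 8 higher and 1 lower at high altitude, against 26.3% of all probes (14.0% higher and 12.2% lower). The altitude split at the 75th percentile scaling was 10 higher and 2 lower, against 19.5% and 10.9% of all probes. The altitude effect is likewise a mean over both breeds. DH minus DL was between -0.34 and 0.03 at the IGF2 probes, 0.04 at IGFBP4 and -0.07 at IGF1 A_72_P181626, and was not called there. For the interaction 10 of 17 were called, 9 positive and 1 negative, against 28.4% (14.9% positive and 13.5% negative). A low TL group alone moves breed, altitude and interaction together, so these counts are not separate evidence. The tested probes with a RefSeq target, a kind to which most member probes belong, were less even. They were called higher at 8.89% and lower at 19.6% for breed, and higher at 25.2% and lower at 10.2% for altitude. Their interaction was called positive at 21.8% and negative at 5.96%. Taking 1 probe per gene, 4 of 9 genes were called for breed (IGF2 not among them), 3 for altitude and 4 for the interaction. The median breed, altitude and interaction effects of the 17 probes were -0.58, 0.58 and 1.31, against -0.07, 0.01 and 0.21 over all probes. With the brightest probe alone for each of the 9 genes, the medians were smaller, at -0.29, 0.24 and 0.83.

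The comparisons of single groups placed most of the differences in TL. TL minus DL was called at 13 of 17 member probes, 12 of them lower and 1 higher in TL and the IGF1R probe seen on 1 DL array among them, against 37.5% of all probes (21.5% lower and 16.0% higher). TH minus TL was called at 10 (37.1% of all probes, 20.5% higher and 16.6% lower), 9 higher and 1 lower in TH. Probes with a RefSeq target were more one-sided than all probes here too. Of those tested, 28.2% were called lower and 7.85% higher for TL minus DL, and 32.6% higher and 10.0% lower for TH minus TL. For TL minus DH they were called lower at 28.5% and higher at 9.78%. Within a slide, TL minus DH was called at 10, 1 higher and 9 lower (33.9% of all probes, 15.1% higher and 18.8% lower). TH minus DL was called at 3, 1 higher and 2 lower (14.1% of all probes, 6.90% higher and 7.24% lower). DH minus DL was called at 2 of 17, IGFBP2 higher and the brightest IGF1R probe lower at high altitude, where 9.95% of all probes were called (5.83% higher and 4.12% lower). TH minus DH was called by limma at none of the 17 (9.33% of all probes). At an unadjusted p below 0.05 that last comparison counted 9 member probes. The model without moderated variances called 0 and limma with an intensity trend called 5. The shares of all probes under these rules are not given here, so these counts are not a result about the members. Taking 1 probe per gene, TL minus DL was called at 6 of 9 genes, TH minus TL at 4 and TL minus DH at 4. All these comparisons share groups and are not independent of each other.

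Looser thresholds called many more probes, members and others alike. At a false discovery rate below 0.05, 14 of 17 member probes were called for breed, 15 for altitude and 16 for the interaction, against 71.6%, 70.8% and 73.7% of all probes. TH minus TL was then called at 16 (76.0% of all probes), TH minus DL at 10 (61.5%), TH minus DH at 8 (58.9%) and DH minus DL at 6 (60.2%). Below 0.01 altitude was called at 14 (60.1%), TH minus DL at 8 (49.8%), TH minus DH at 8 (44.4%) and DH minus DL at 6 (47.0%). For TH minus DH, DH minus DL and TH minus DL the share of members called at 0.05 was below that of all probes.

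Both TL arrays were below the 6 other arrays at 13 of the 17 member probes, which belong to 7 genes. This order was seen at 36.9% of all probes and at 47.0% of the 3005 tested probes with a RefSeq target. Counted at brightest probes, it was found for 6 of the 9 genes. The 75th percentile scaling also gave 13 probes, with IGFBP3 left out and the dim IGF1R probe A_72_P262822 added. Both normalizations of the raw signals gave 14. The shares of all probes with this order at those scalings are not given here, so these counts do not set the members apart. One member probe, the brightest of IGF1R, had both TL arrays above the rest (26.6% of all probes), and at the 75th percentile scaling GHR had this order in its place. Both TH arrays were above the 6 others at 6 member probes, those of IGF1, IGF2, IGFBP4 and IGFBP6 (18.1% of all probes).

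Of 44 further genes of the pathway, 18 had a named probe and 14 a tested one, with 23 tested probes. No named probe was found for IGF2R, INSR, IGFBP1, IGFBP7, PAPPA and PAPPA2, among others. The growth hormone gene GH1, the ghrelin receptor gene GHSR, somatostatin (SST) and STC2 each had a probe that was not well above background on any array. Breed was called at 7 of the 23 probes, 3 higher and 4 lower in Tibetan pigs, against 27.4% of all probes. Altitude was called at 12, 6 in each direction, against 26.3%. The interaction was called at 4, 2 in each direction, a share below the 28.4% of all probes. The breed and interaction effects of IGFALS, the breed effect of SOCS2 and the altitude effect of STC1 at their brightest probes stayed called whichever array was left out, and each other called effect of these kinds on the list was lost without at least 1 array.

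STC1, a secreted glycoprotein that inhibits the IGFBP protease PAPPA, had the largest altitude effect of these further probes. Its brighter probe (A_72_P251422) read 10.91 and 11.001 in TH, 13.09 and 13.17 in TL, 11.78 and 11.71 in DH, and 12.68 and 12.67 in DL. Every low altitude array was above every high altitude array. The altitude effect was -1.55 ± 0.03, a 2.93-fold difference, and the second probe gave -1.15 ± 0.04, both called. The interaction of the brighter probe was -1.24 ± 0.07 and called, that of the second probe was -0.03 ± 0.07, and at the 75th percentile scaling the first was -0.78 and not called.

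IGFALS encodes the acid-labile subunit, which holds IGF and IGFBP3 in a large complex in blood. Its probe (A_72_P223727) read 8.15 and 8.20 in TH, 6.85 and 6.86 in TL, 8.40 and 8.40 in DH, and 8.86 and 8.90 in DL. All Tibetan arrays were below all Duroc arrays, with TL lowest. Breed (-1.12 ± 0.02), altitude (0.42 ± 0.02) and interaction (1.80 ± 0.04) were called. With local background subtraction and an offset of 50 they were -0.36, 0.07 and 0.53, and altitude was not called.

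Among growth hormone receptor signaling genes, SOCS2, an inhibitor of that receptor induced by the hormone itself, had all Tibetan arrays below all Duroc arrays at each of its 3 probes. The breed effect was called at 2 of them, with -0.79 ± 0.02 at the brightest (A_72_P203472) and -0.72 ± 0.03 at A_72_P078026, and was -0.80 ± 0.13 at the third. The interaction of the brightest was 0.65 ± 0.04 and called. STAT5A was 1.87-fold higher at high altitude (0.91 ± 0.02, called). STAT5B, the STAT protein that carries much of the hormone's signal to IGF1, was higher in Tibetan pigs at its brightest probe (0.36 ± 0.02, called) and higher at high altitude at the dimmer one (0.63 ± 0.03, called). The first of these calls was lost at all 3 other scalings (0.28 to 0.33). JAK2 was lower at high altitude, by -0.52 ± 0.03, at the edge of the threshold (adjusted p = 9.97e-05), and this call was lost at the 75th percentile scaling (-0.46).

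IRS1, the docking protein of the IGF1 and insulin receptors, read 11.40 and 11.42 in TH, 11.89 and 11.88 in TL, 11.91 and 11.90 in DH, and 12.66 and 12.64 in DL at A_72_P371473. It was highest in DL and lowest in TH, and TL and DH lay together. Breed (-0.63 ± 0.02) and altitude (-0.61 ± 0.02) were both called. The IRS1 probe and the brightest SOCS2 probe had a name only through the study's lists of results from these arrays, some of them selected by the authors' tests. The IGFALS probe and a PTPN1 probe were also on them, and those lists are not independent evidence. GRB10, an adaptor that restrains these receptors, was 1.24-fold higher at high altitude (0.31 ± 0.02, called). The effect was 0.67 at the 75th percentile scaling, and the call was lost from the raw median signals (0.31) and whichever array was left out.

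The 4 probes of PTPN1, a phosphatase of JAK2 and the insulin receptor, disagreed. The altitude effect was -0.43 ± 0.02 at the brightest (A_72_P437044), and 0.38 ± 0.02 at A_72_P157406 and 0.49 ± 0.02 at A_72_P192882, all called. It was 0.55 ± 0.06 and not called at the dimmest probe, A_72_P131831. That probe alone of the 4 had a negative breed effect (-0.23 ± 0.06) and a positive interaction (0.47 ± 0.12), neither called. CTGF, a matricellular protein with an IGFBP-like domain, was lower at high altitude at A_72_P261597 (-0.46 ± 0.02) and higher in Tibetan pigs at A_72_P223817 (0.43 ± 0.03). Both of these calls, and that of the brightest PTPN1 probe, were lost at the 75th percentile scaling (-0.05, 0.16 and -0.09). From the raw median signals further calls of the list were lost. For altitude these were IGFALS, JAK2, STAT5B A_72_P033581, CTGF A_72_P261597 and the 3 PTPN1 probes with a called altitude effect. For the interaction they were the brightest SOCS2 and STC1 probes and PTPN1 A_72_P157406. Neither breed, altitude nor interaction was called for GRB2, an adaptor of receptor kinases, or for IGF2BP2, which binds IGF2 transcripts, with interactions of -0.03 ± 0.04 for GRB2 and of 0.17 ± 0.04 and 1.08 ± 0.07 at the 2 probes of IGF2BP2. TL minus DL was called at the dimmer IGF2BP2 probe (A_72_P298845), at -0.76 (adjusted p = 8.5e-05). GHRHR and the insulin gene INS were not well above background on all arrays, and none of their effects was called.

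**Figure D4:**
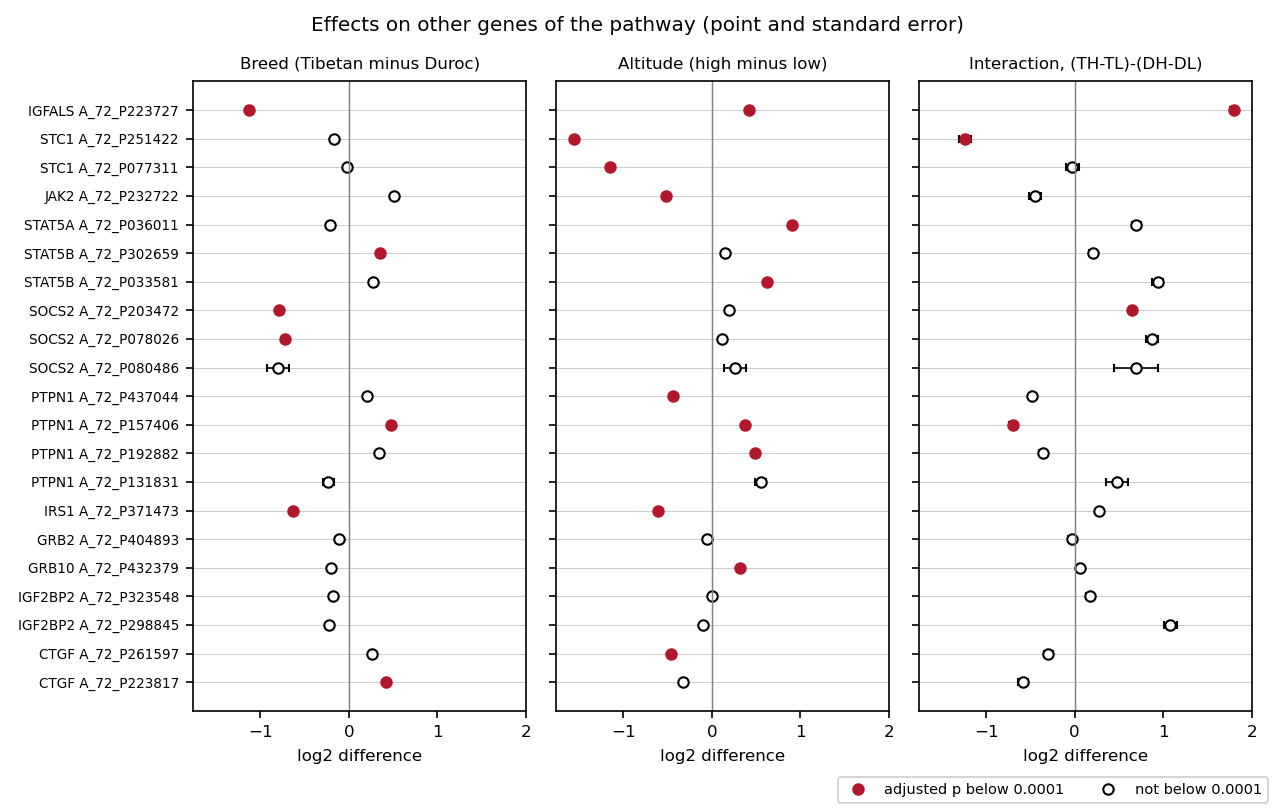
Log2 effect of breed, altitude and their interaction (horizontal axes) for the 21 further pathway probes well above background on all 8 arrays, with standard errors; filled points have an adjusted p below 0.0001. STC1 has the most negative altitude effect and IGFALS the most negative breed and most positive interaction effect.

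The pattern of other genes over the 8 arrays was set beside those of IGFBP2, IGFBP3 and IGF1R, whose brightest probes had the widest range of group means. Compared were named genes well above background on all arrays with a range at least 0.5 times as wide. For IGFBP2 the highest Pearson r were 0.9997 with CCL21, a chemokine of lymphoid tissue, 0.9994 with PEMT, a phospholipid methyltransferase, and 0.999 with ALKBH2, a DNA repair enzyme. Of 1401 candidate probes for IGFBP2, 185 had r above 0.95. For IGFBP3 they were LOC100624700 (0.997), AFAP1L2 (0.996) and the matrix protein gene TNC (0.996), and for IGF1R they were STC1 (0.999), the growth factor receptor gene EGFR (0.999) and VCL, which encodes vinculin (0.996). With 8 arrays in 4 groups whose replicates lie close together, such r describe the order of the group means and carry no test.

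**Figure D5:**
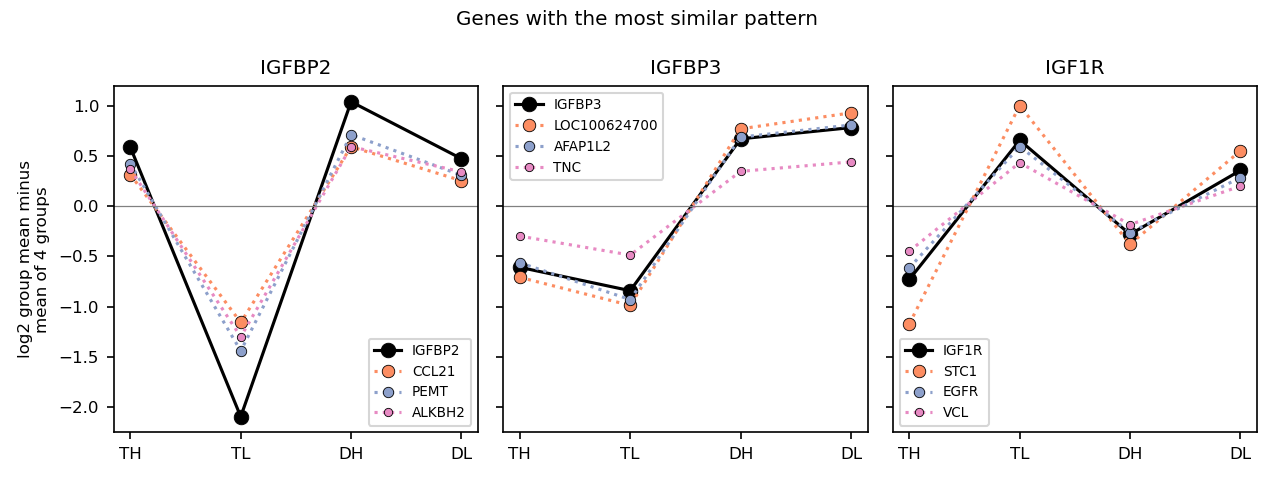
Group mean of the deposited log2 value minus the mean of the 4 groups (vertical axis) for IGFBP2, IGFBP3 and IGF1R (black) and the 3 genes most like each (colored); lines join values of the same gene. IGFBP2 and its 3 genes drop in TL, IGFBP3 and its 3 are lower in both Tibetan groups, and IGF1R, STC1, EGFR and VCL are lowest in TH and highest in TL.

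Markers of further cell types differed between the same groups. The summed level of 5 fibroblast and mesenchyme markers, on the linear scale of the deposited values, was 278877 to 280750 in TH, 259770 to 263813 in TL, 186104 to 187320 in DH and 252467 to 269484 in DL. The sum was lowest in DH, but its members went both ways. Between TL and DL, COL1A1 (-1.71 ± 0.07) and COL1A2 (-1.59 ± 0.04) were called lower in TL, and the proteoglycan genes DCN (1.00 ± 0.03) and LUM (1.33 ± 0.03) were called higher. For breed 2 of the 5 were called higher and 2 lower, and for altitude 2 higher and 1 lower. The 2 cartilage markers with a named probe, ACAN and MATN1, summed to 3866 to 4087 in TH, 8660 to 9011 in TL, 401 to 412 in DH and 1380 to 1433 in DL, and COL2A1 and COL9A1 had no named probe. MATN1 was well above background on 6 arrays, not on those of DH. The 5 liver markers summed to 50475 to 50702 in TH, 31397 to 31840 in TL, 29558 to 30589 in DH and 19671 to 19836 in DL. Lung epithelium markers were lowest in TH, at 844313 to 853683, and lay between 995381 and 1123831 in the other groups. The part of tissue composition in the differences of the IGF system was not tested.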

How the data were processed

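Lung RNA of 8 pigs was hybridized to 8 one-color Agilent porcine arrays, 2 per group, with groups taken from the sample labels. Per the labels and methods, the authors read spot signals from the scans with Agilent Feature Extraction, version 10.7.3.1 per the file headers (9.1 in the submitters' processing notes). The deposited scanner files give each spot's intensity as median, local background and processed signal. A second deposited table holds log2 values that the authors made by RMA. All its columns share 1 distribution with a median of 7.40, and its exact steps are unknown. This log2 table was the main source here.

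Of 43603 non-control probes, the 34406 that any array showed well above background were tested. A cell means model was fitted with limma 3.58.1 in R 4.3.3 using moderated variances, Benjamini-Hochberg adjustment over all tested probes and a false discovery rate (FDR) below 0.0001 as in the study. The model was first tested on simulated data. Tables and figures were made with Python 3.11.15, pandas 2.3.3, numpy 2.4.6 and matplotlib 3.10.9. Symbols came from RefSeq accessions (2683 of 3250 such probes matched) and from the study's supplementary tables, which were used in part; 5678 probes had a symbol. Named genes were all member probes, a pathway list of 44 genes and the 3 genes most like each of 3 members. The members and lists were chosen with earlier results of these data known. Alternatives were other sources and scalings of the signal, filters on dim probes, variance models, thresholds, slide and replicate blocks and leaving out each array. The number of arrays limits the precision. Only symbols were taken from the supplementary tables, which hold the authors' own results, some of them selected by their tests.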

Additional observations from a re-analysis of the deposited data

Results flagged for a closer look

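The altitude effect differed between the breeds, by the interaction term of the limma fit at an adjusted p below 0.0001, at 10 member probes. For the ligands the interaction was 1.31 at IGF1 A_72_P181626, and for IGF2 it was 1.03 at A_72_P211042, 1.41 at A_72_P303139, 2.22 at A_72_P414438, 2.27 at A_72_P209727, 1.59 at A_72_P414443 and 1.75 at A_72_P055876. For the binding proteins it was 2.11 at IGFBP2 and 1.34 at IGFBP4. For IGF1R it was -0.75 at A_72_P305924, and this value moved to -0.16 at the 75th percentile scaling. Positive values mean that the high minus low altitude difference was larger in Tibetan than in Duroc pigs.

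The same difference was found at 4 further pathway probes, with 1.80 at IGFALS, 0.65 at SOCS2 A_72_P203472, -1.24 at STC1 A_72_P251422 and -0.70 at PTPN1 A_72_P157406. The values of STC1 and PTPN1 were -0.78 and -0.23, and not called, at the 75th percentile scaling. From the raw median signals the interactions of IGF1 A_72_P181626, IGF2 A_72_P211042, STC1, SOCS2 and PTPN1 were not called. The interaction was called at 28.4% of all tested probes. It is also the contrast between the slides and between moved and unmoved pigs, which cannot be told apart from it.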

How the results depend on the processing

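Of 100 effects of member and pathway probes given here, 70 were called, and 1 of these changed its direction under any alternative. The mean of all IGF1R probes gave an interaction of 1.04, opposite to its brightest probe. That mean includes the dim probe A_72_P262822, with an interaction of 2.72 from values near background. It also includes A_72_P146851, with a positive interaction of 1.14 that was not called. Of 51 breed, altitude and interaction effects of the member probes 28 were called. All 28 stayed called at all filters that require more arrays above background, with an intensity trend and with local background subtraction. Those that stayed were 27 with no filter on dim probes, 25 at the 75th percentile scaling and 23 from the raw median signals. They were 17 without moderated variances and 11 with the replicate block. A block for slide is the same contrast as the interaction. The 18 breed and altitude calls were therefore bound to stay with it, which says nothing about an effect of slide. Leaving out 1 array kept 7 of the 28 at the threshold each time, namely breed, altitude and interaction at IGFBP2 and IGF2 A_72_P209727 and altitude at IGF1R A_72_P305924; all 28 kept their direction and an adjusted p below 0.01.

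Effects that were not called changed sign as follows. At the 75th percentile scaling breed was 0.023 and 0.0087 at the brighter and dimmer IGF1 probe, 0.16 at IGF1R A_72_P146851 and 0.14 at GHR, the GHR interaction was -0.22, IGFBP3 altitude -0.032 and interaction -0.037, the IGFBP6 interaction 0.41 and IGFBP6 TL minus DH -0.46. IGFBP3 altitude was -0.0048 with local background subtraction. Breed at the brighter IGF1 probe ranged from -0.26 to 0.075 over the arrays left out (positive without TL replicate 2), breed at IGF1R A_72_P146851 from -0.26 to 0.13 (positive without TH replicate 2), and the GHR interaction from -0.010 to 0.25 (negative without DH replicate 2).

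The number of called member probes moved by over 1.5 times in these cases. The counts describe the members alone and are given without the share of all probes at each setting. For breed (9) it was 4 without moderated variances, 4 with the replicate block and 14 at an FDR below 0.05. For altitude (9) it was 3 with the replicate block, 14 at an FDR below 0.01 and 15 below 0.05. For the interaction (10) it was 4 with the replicate block and 16 at an FDR below 0.05. TH minus DH (0) gave 2 with local background, 2 and 4 with both arrays of a group or all arrays above background, 5 with an intensity trend and 8 at an FDR below 0.01 or 0.05. TL minus DL (13) gave 8 without moderated variances, and TH minus TL (10) gave 16 at an FDR below 0.05. DH minus DL (2) gave 0 from the raw median signals, with no filter, without moderated variances and with the replicate block, and 6 at an FDR below 0.01 or 0.05. TH minus DL (3) gave 1 with no filter, 1 without moderated variances, 0 with the replicate block, 8 at an FDR below 0.01 and 10 below 0.05. Over the 8 left-out arrays the counts were 2 to 3 for breed, 3 to 3 for altitude, 3 to 5 for the interaction, 0 to 0 for TH minus DH, DH minus DL and TH minus DL, 5 to 9 for TL minus DL, 7 to 9 for TH minus TL and 4 to 10 for TL minus DH; fewer arrays also leave fewer degrees of freedom, and the lone array of a group is assumed to vary like the others.

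Replicate numbers did not pair the samples: deviations of same-numbered arrays from their group means correlated between -0.043 and 0.091, and the block was used as an alternative only. Signal over background limits GHR, IGFBP3 and IGFALS, whose effects shrank with an offset of 50, and the IGF1R probe that was not well above background in 3 groups.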
